A study of Mus musculus with 6 samples.

Results

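Antigen presentation by MHC molecules was followed through 36 genes, taken as a fixed list of gene symbols and found in all 36 cases among the 18039 genes of the deposited table. The list held 10 genes of the class II arm, 21 genes of the class I arm and 5 transactivators, and 35 of the 36 had enough counts to be tested. The series compared 2 genotypes of mouse macrophages grown from bone marrow, Ctrl and KAT7KO, by bulk RNA sequencing with 3 libraries each. Marrow cells had been grown into macrophages for 7 days with 20 ng/mL of the growth factor M-CSF in both genotypes, and no further stimulus is named in the labels. KAT7 (HBO1) is a histone acetyltransferase of the MYST family, and the series title places it in macrophage extracellular trap formation and atherosclerosis. The labels give the genotypes by these names alone, so strain, age, the deleted part of the gene, the cells in which it was deleted and any pooling of animals are not stated in them. Each library is called a biological replicate, but nothing says that each came from a separate mouse. The p-values therefore measure the spread between these libraries, which may be technical.

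MHC class II molecules carry peptides from endosomes to CD4+ T cells. Their alpha and beta chains are held by the invariant chain Cd74 until proteases degrade it and the editor H2-DM exchanges its last fragment for a peptide. MHC class I molecules pair a heavy chain with B2m and carry peptides that the proteasome makes in the cytosol, that TAP pumps into the endoplasmic reticulum and that a loading complex fits into the groove. Resting macrophages make both, with interferon-gamma as the classical inducer. The coactivator CIITA drives class II genes and NLRC5 drives class I genes, and both act through promoter-bound RFX (Rfx5, Rfxap and Rfxank), CREB and NF-Y proteins.

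The promoters of 3 class II genes, of B2m and of the stretch shared by Psmb9 and Tap1 are shown. They hold, or do not hold, exact matches to short letter cores that these factors are known to bind. They are read from RefSeq on build GRCm38.p6, as 200 bases ending at the base before the annotated start, or for Tap1 as the 225 bases between its start and that of Psmb9 on the opposite strand. Capitals mark the letters searched on both strands: CCAAT (the Y box of NF-Y), AGCAAC (the core of the X box of RFX), TGACG (a binding core of CREB), the core of an interferon-stimulated response element (GAAA, any 2 bases, GAAA) and TTCNNNGAA (a gamma-activated sequence). H2-Aa lies at chr17:34287824-34288023, minus strand, H2-Eb1 at chr17:34305667-34305866, plus strand, and H2-DMb1 at chr17:34152991-34153190, plus strand. B2m lies at chr2:122147487-122147686, plus strand, and the stretch before Tap1 at chr17:34187331-34187555, plus strand.
H2-Aa: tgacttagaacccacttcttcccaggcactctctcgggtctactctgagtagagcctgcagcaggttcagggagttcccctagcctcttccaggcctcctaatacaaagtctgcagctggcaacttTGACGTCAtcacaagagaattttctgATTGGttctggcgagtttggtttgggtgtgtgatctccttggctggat
H2-Eb1: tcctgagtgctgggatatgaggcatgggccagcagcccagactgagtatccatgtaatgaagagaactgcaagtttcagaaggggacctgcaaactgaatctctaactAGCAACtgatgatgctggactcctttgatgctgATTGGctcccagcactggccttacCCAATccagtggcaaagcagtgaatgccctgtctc
H2-DMb1: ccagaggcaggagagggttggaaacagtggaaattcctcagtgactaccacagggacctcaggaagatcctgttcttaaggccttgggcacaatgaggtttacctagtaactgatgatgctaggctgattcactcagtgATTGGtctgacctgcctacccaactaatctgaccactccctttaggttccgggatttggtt
B2m: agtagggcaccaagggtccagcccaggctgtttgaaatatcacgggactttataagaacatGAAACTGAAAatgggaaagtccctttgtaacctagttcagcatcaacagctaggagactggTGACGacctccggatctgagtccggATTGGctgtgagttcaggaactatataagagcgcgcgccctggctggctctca
Tap1: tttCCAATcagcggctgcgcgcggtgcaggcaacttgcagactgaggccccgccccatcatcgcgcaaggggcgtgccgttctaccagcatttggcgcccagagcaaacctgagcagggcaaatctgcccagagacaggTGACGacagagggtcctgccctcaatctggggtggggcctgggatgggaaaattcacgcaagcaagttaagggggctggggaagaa

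All 3 class II promoters held CCAAT on the reverse strand, 48 bases before the start in H2-Aa, 59 in H2-Eb1 and 61 in H2-DMb1. H2-Aa also held TGACG on both strands, as an overlapping pair, and H2-Eb1 alone of the 3 held AGCAAC as exact letters. Near matches, such as ggcaac in H2-Aa and agtaac in H2-DMb1, were not searched. The lack of an exact match therefore does not show that a site is absent. B2m held CCAAT as well as TGACG and the response element core. Over windows of 300 bases, from 250 before to 50 after the start, 29 of the 36 genes matched RefSeq, leaving out H2-Ab1, Tap2, Rfxap, Nlrc5, Ciita, Tapbpl and Cd74. CCAAT was in a window of 23 of the 29 genes, against 37.4% of all 32851 windows, and TGACG in 13 of the 29, against 20.8%. The response element core was in 5 of them (B2m, Erap1, Psme1, H2-T22 and H2-T23), against 3.44%. AGCAAC was in 5, against 14.8%, and TTCNNNGAA in 3, against 8.3%. A match of letters is a description of the sequence and does not show that a factor is bound.

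The libraries held 19906726 to 20660090 counts over genes. Kat7 was read first as a check of the labels: it was at 73.2, 70.3 and 69.0 CPM (counts scaled to library size, with TMM factors) in Ctrl replicates 1, 2 and 3 and at 41.4, 42.2 and 38.2 CPM in KAT7KO, lower in every KAT7KO library. Its log2 fold change was -0.80 (SE 0.06, edgeR adjusted p = 9.63e-07), which left 57.3% of the Ctrl level. The libraries carried macrophage markers such as Cd68 (2611 to 2819 CPM) and Adgre1 (578 to 658 CPM), and of 9 such markers 0 rose and 3 fell, Lyz2 and Itgam among them. Of all genes tested, 10.7% rose and 13.2% fell. Ctrl replicate 1 stood apart from the other libraries: its mean chi-square per gene against Ctrl replicates 2 and 3 was 11.5 and 20.2, against 2.68 to 3.77 for the other pairs within a genotype. It read short genes lower and long genes higher than the mean of all libraries, itself included. Its trend was -0.15 and 0.11 on the log2 scale at the 10th and 90th percentile of gene length. The other 5 libraries stayed between -0.03 and 0.06. For some genes, though not all, values without this library are also given.

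The members spanned more than 4 orders of magnitude when levels were compared per length, on the FPKM that the authors deposited. B2m was highest in Ctrl, at 4579 ± 235 FPKM (SD, n = 3), followed by the class I heavy chain genes H2-D1 at 2427 ± 64.3 and H2-K1 at 653 ± 1.90 FPKM, with the endosomal protease gene Lgmn between them at 1078 ± 21.4 FPKM. Class II genes were lower. Cd74 stood at 168 ± 4.59 FPKM, and the chain genes H2-Eb1, H2-Ab1 and H2-Aa at 23.7 ± 0.734, 21.9 ± 0.765 and 19.9 ± 0.540 FPKM. H2-Ab1 did not differ from H2-DMb1 (21.9 ± 0.865 FPKM) beyond this spread. Of the coactivators, Nlrc5 was at 2.11 ± 0.365 FPKM and Ciita, lower than any other member but H2-Q6 and H2-Oa, at 0.228 ± 0.0362 FPKM. The non-classical gene H2-Q6 was at 0.190 ± 0.167 FPKM, a spread that covers the level of Ciita. H2-Oa, part of the H2-DM inhibitor H2-O, had 0, 1 and 2 counts in Ctrl and 1, 4 and 7 in KAT7KO and was not tested. The 0 in Ctrl replicate 1 allows a level of up to 0.145 CPM, counting error only.

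**Figure D1:**
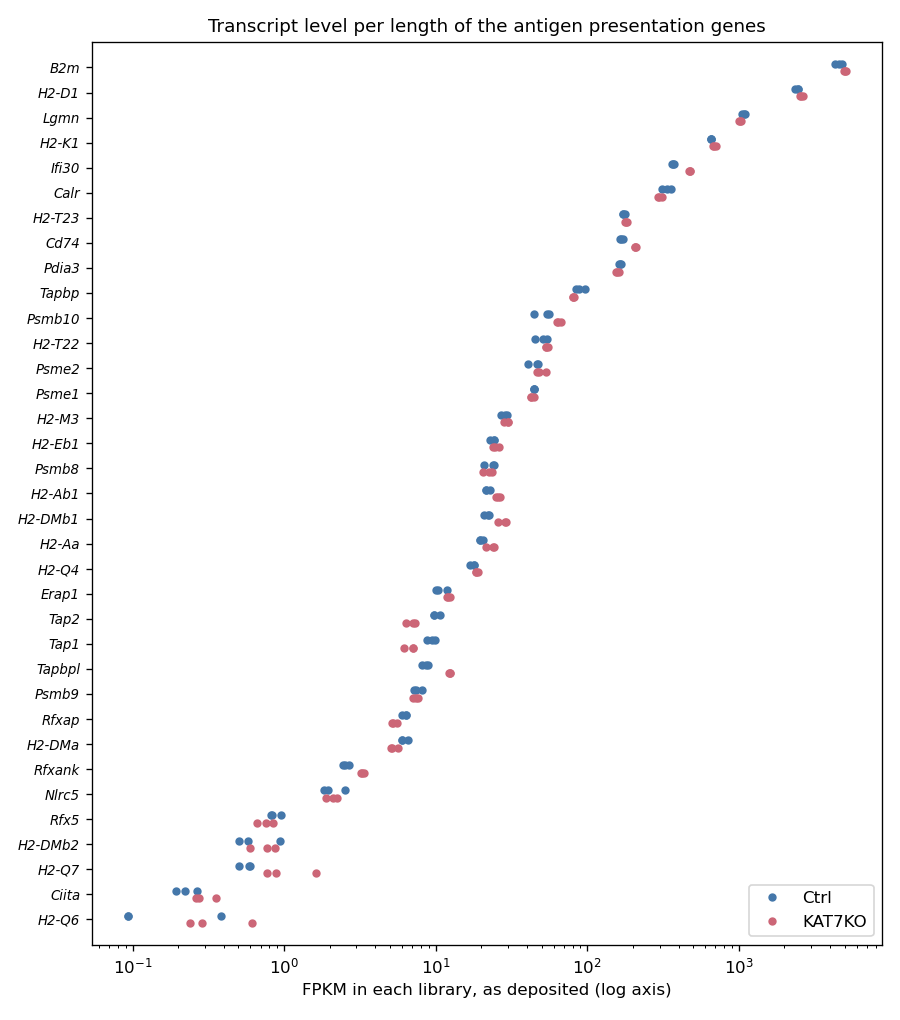
FPKM as deposited, on a log axis, for the 35 tested genes in each of the 3 Ctrl and 3 KAT7KO libraries, ordered by the Ctrl mean. B2m and H2-D1 lie at the top and Ciita and H2-Q6 at the bottom, and the colours separate for Cd74, Ifi30, Tap1, Tap2 and Tapbpl.

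Class II genes were higher in KAT7KO macrophages for 5 of the 9 tested, which stood at 119% to 131% of Ctrl, and 0 of the 9 were lower. Genes of class I went both ways: 4 of 21 were higher and 2 were lower, the latter being both subunits of the TAP peptide pump. Of the 5 transactivators 1 was higher. With edgeR's quasi-likelihood test and an adjusted p threshold of 0.05 over 12483 genes, 23.9% of all genes passed, 10.7% higher and 13.2% lower in KAT7KO. For all 35 tested members the share that passed was 34.3% (10 higher and 2 lower), for class II 55.6%, for class I 28.6% and for the transactivators 20.0%. The class I and transactivator shares lie near that of all genes. The median log2 fold change was 0.25 for class II, 0.10 for class I and -0.00 for the transactivators, against 0.00 for all genes. A log2 fold change above 0 was found in 7 of 9 class II genes, 13 of 21 class I genes and 2 of 5 transactivators, and in 50.3% of all genes. These counts and medians describe the lists, which were not tested as lists, and no test of the difference between the arms was made. Without Ctrl replicate 1, class II gave 5 higher and 2 lower (H2-DMa and Lgmn), class I 8 higher and 4 lower, and the transactivators 1 and 0, over a test that then called 1708 genes higher and 1820 lower. Class I gave 2 higher without KAT7KO replicate 1 and 2 higher without KAT7KO replicate 2. At an unadjusted p under 0.05, class II gave 5 higher and 1 lower and class I 7 higher and 4 lower.

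**Figure D2:**
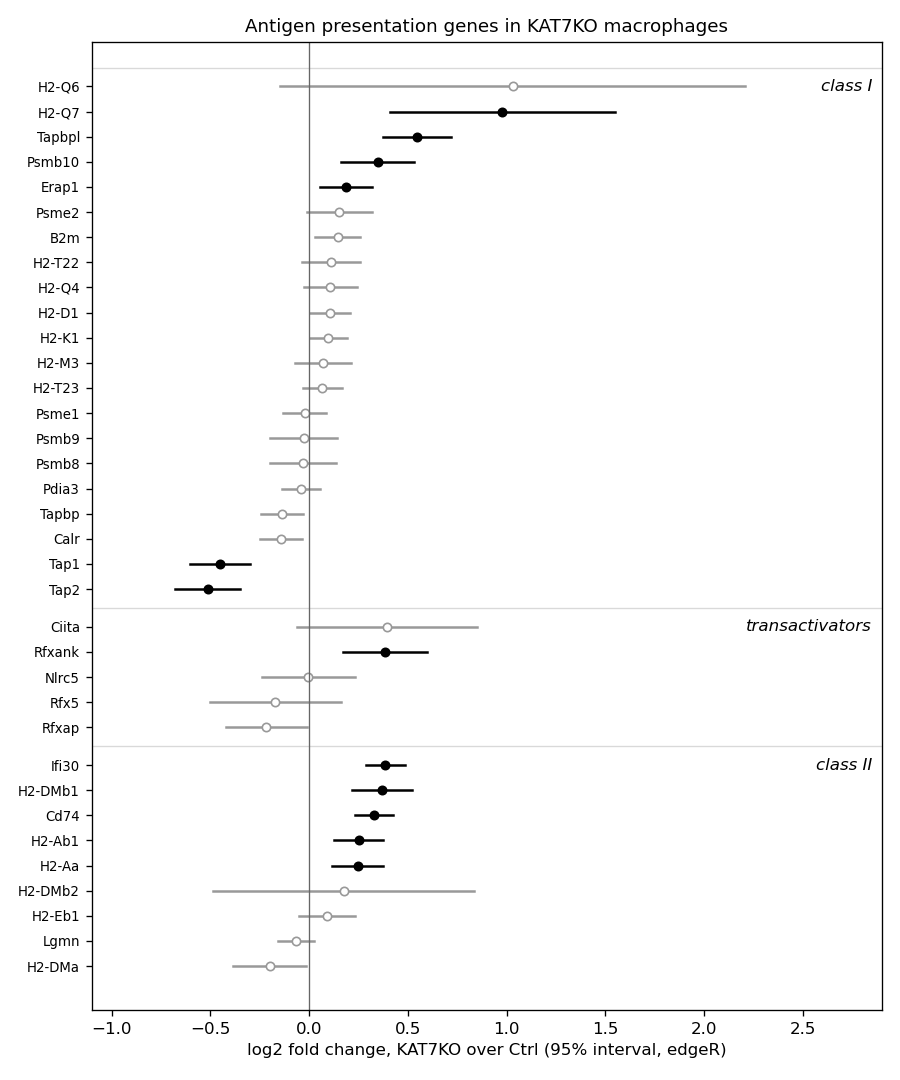
Log2 fold change of each tested gene, KAT7KO over Ctrl, with its 95% interval from edgeR, grouped as class I, transactivators and class II. Filled black points passed an adjusted p of 0.05: 5 class II genes, all above 0, 4 class I genes above 0 and 2 below it, and Rfxank.

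The alpha and beta chain genes of the class II molecule I-A rose together. H2-Aa was at 71.9, 77.9 and 75.1 CPM in Ctrl and at 91.6, 92.7 and 82.5 CPM in KAT7KO. Every KAT7KO library was above every Ctrl library, with replicate 3 the lowest of its genotype. H2-Ab1 was at 56.7, 55.1 and 55.8 CPM in Ctrl and at 66.4, 64.2 and 68.9 CPM in KAT7KO, again with no overlap. The log2 fold changes were 0.25 for both (SE 0.06; edgeR adjusted p = 0.00950 for H2-Aa and 0.00604 for H2-Ab1), or 119% of Ctrl. H2-Eb1, the beta chain gene of I-E, overlapped between the genotypes, at 45.4, 44.4 and 47.4 against 48.0, 51.6 and 46.5 CPM. Its log2 fold change was 0.09 with a 95% interval of -0.05 to 0.23 (adjusted p = 0.337). The upper end of that interval lies just under the values of H2-Aa and H2-Ab1, and the difference between these genes was not tested. H2-Aa missed the threshold without KAT7KO replicate 1 (adjusted p = 0.0604) and without KAT7KO replicate 2 (0.0686). With a gene-length trend removed from each library, H2-Aa was at 0.24, H2-Ab1 at 0.20 and H2-Eb1 at 0.010.

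Cd74, the invariant chain gene, was at 281, 276 and 282 CPM in Ctrl and at 356, 348 and 349 CPM in KAT7KO. The spread within each genotype was small beside the gap between them. The log2 fold change was 0.33 (SE 0.05, edgeR adjusted p = 0.000159), or 125% of Ctrl (95% interval 117% to 134%). With a gene-length trend removed from each library, Cd74 rose by 0.23 (edgeR adjusted p = 0.00179). Relative to H2-Aa it did not move beyond the spread: the ratio of their FPKM was 8.45 ± 0.422 in Ctrl and 8.95 ± 0.550 in KAT7KO (SD, n = 3).

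Of the chains of the peptide editor H2-DM, a beta chain rose and the alpha chain did not pass the test. H2-DMb1, a beta chain gene, was at 36.3, 35.2 and 38.3 CPM in Ctrl and at 43.8, 49.3 and 48.7 CPM in KAT7KO. It rose by 0.37 on the log2 scale (SE 0.07, edgeR adjusted p = 0.00196), and by 0.27 with the length trend removed (adjusted p = 0.00507). H2-DMa, the only alpha chain gene, was at 20.0, 20.7 and 22.8 CPM in Ctrl and at 17.7, 17.9 and 19.6 CPM in KAT7KO. Its KAT7KO values lay just under the Ctrl ones, with a log2 fold change of -0.20 that missed the threshold (SE 0.09, adjusted p = 0.113). Leaving out Ctrl replicate 1 put it past the threshold, at -0.24 (adjusted p = 0.0394). The ratio of H2-DMb1 to H2-DMa in FPKM was 3.72, 3.50 and 3.45 in the Ctrl libraries and 5.08, 5.65 and 5.08 in the KAT7KO libraries. An exact permutation test of this log2 ratio gave p = 0.1, two-sided, the smallest that 3 against 3 allows, and 0.26 adjusted over the 13 ratios computed. This ratio was picked after its values were seen, so the test decides nothing. The second beta chain gene, H2-DMb2, was far lower, at 0.879 to 1.59 CPM in Ctrl and 1.05 to 1.54 CPM in KAT7KO, and its 95% interval was wide (-0.49 to 0.84). Reads can be shared between both beta chain genes, and their summed counts gave a log2 fold change of 0.36 (adjusted p = 0.00223). In the GENCODE annotation H2-DMa overlaps Brd2 and other genes on the opposite strand, and the strand setting of the counting is not given.

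Of the endosomal enzymes, Ifi30 (GILT), a thiol reductase that opens disulfide bonds of antigens, rose, with the highest log2 fold change of the class II genes as counted. It was at 350, 354 and 370.3 CPM in Ctrl and at 473, 468 and 463 CPM in KAT7KO, without overlap, a log2 fold change of 0.39 (SE 0.05, edgeR adjusted p = 5.16e-05). With a gene-length trend removed from each library it was 0.23 (adjusted p = 0.00376). Lgmn, the asparagine endopeptidase that can start the cleavage of antigens and of the invariant chain, was at 2472, 2512 and 2477 CPM in Ctrl and 2407, 2373 and 2346 CPM in KAT7KO. Its groups did not overlap, but the log2 fold change of -0.07 missed the threshold (SE 0.04, adjusted p = 0.281). It passed without Ctrl replicate 1 (adjusted p = 0.0416), with the length trend removed (0.0148) and with both (0.00156). Among all 9 tested class II genes, 5 had all KAT7KO values above and 2 all below the Ctrl values. Among all genes 19.9% lay above and 21.2% below, or 41.1% in all.

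**Figure D3:**
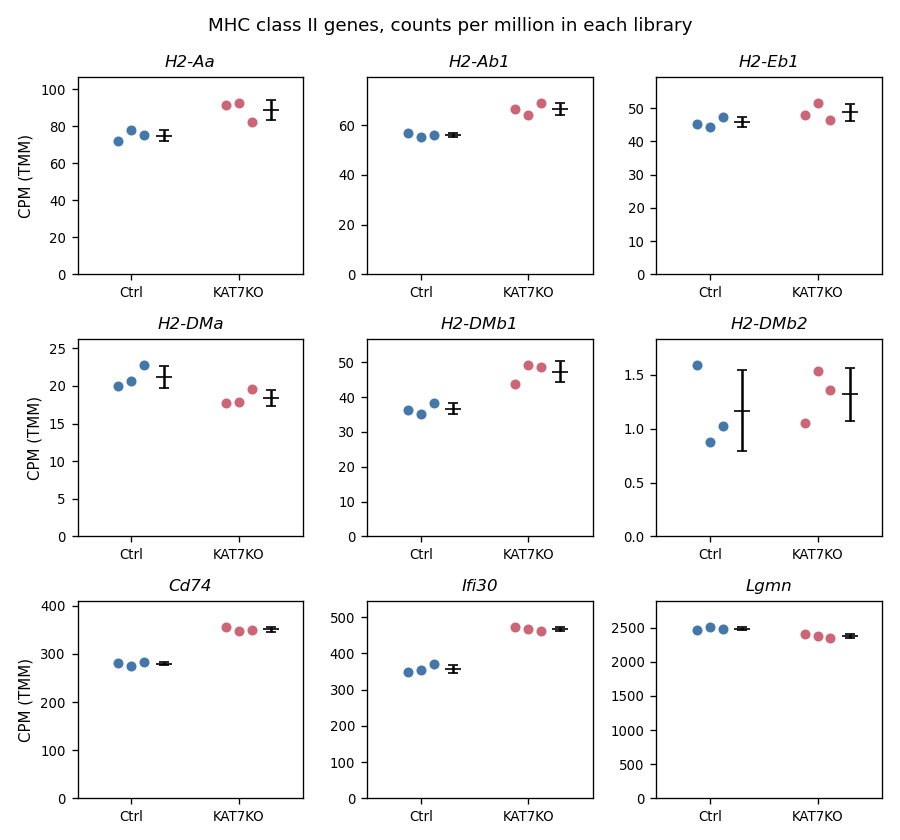
CPM after TMM scaling of the 9 tested class II genes in each library, with bars for mean ± SD (n = 3) and axes from 0. KAT7KO values lie above Ctrl without overlap for H2-Aa, H2-Ab1, H2-DMb1, Cd74 and Ifi30, and just below for H2-DMa and Lgmn.

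B cells and dendritic cells also express class II genes. Some B cell markers rose with them, whereas 0 of the tested dendritic cell markers passed as higher. Of 10 B cell markers 8 had a row and 6 were tested, of which Ms4a1, Bank1 and Cd22 rose and 0 fell. Among all genes tested 10.7% rose and 13.2% fell. Ms4a1 had 12, 9 and 5 counts in Ctrl and 24, 23 and 36 in KAT7KO, and Bank1 33, 34 and 38 against 71, 71 and 58. Pax5, which defines B cells, had 3, 5 and 4 counts in Ctrl and 9, 3 and 4 in KAT7KO. The summed level of the 8 markers was 111 to 129 CPM in Ctrl and 149 to 163 CPM in KAT7KO, of which Cd22 alone made 106 to 124 and 139 to 154 CPM. Dendritic cell markers gave 0 higher and 1 lower (Itgax, log2 fold change -0.20) of 5 tested, and their summed level was 198 to 248 CPM in Ctrl and 189 to 196 CPM in KAT7KO. The defining gene Flt3 had 0, 1 and 1 counts in Ctrl and 1, 4 and 1 in KAT7KO, and Clec9a 0, 2 and 1 against 4, 5 and 3. T and NK cell markers summed to 0.917 to 1.17 and 0.895 to 1.40 CPM. Of 6 neutrophil markers 4 had a row and 1 was tested, S100a8, which rose by 0.86. Untested Cxcr2 had 16, 11 and 7 counts in Ctrl and 0, 3 and 2 in KAT7KO. Mpo had 0, 0 and 4 against 0, 0 and 0, and Elane 4, 4 and 3 against 4, 5 and 8. The part of such cells in the class II result was not tested, and in bulk RNA a change in the number of cells of a type cannot be told apart from a change in RNA per cell.

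Of the 8 class I heavy chain genes 1 passed, H2-Q7, and the log2 fold changes of all 8 were above 0, from 0.07 to 0.11 for 6 of them and near 1 for H2-Q6 and H2-Q7. Among all genes tested 23.9% passed and 50.3% had a log2 fold change above 0. H2-D1 was at 5887, 6332 and 6452 CPM in Ctrl and 6854, 6660.1 and 6595 CPM in KAT7KO, and H2-K1 at 1856, 1926 and 1936 against 2077, 2032 and 2008 CPM. Neither overlapped between the genotypes, but the log2 fold changes, 0.11 and 0.10, missed the threshold (edgeR adjusted p = 0.117 and 0.127). Both passed without Ctrl replicate 1 (adjusted p = 0.0408 and 0.0370), at 0.067 and 0.077, and H2-D1 also without Ctrl replicate 3, at 0.14 (0.0462). H2-T23 (Qa-1, a ligand of NK cell receptors), H2-T22, H2-Q4 and H2-M3 (which presents formylated peptides) had log2 fold changes of 0.07 to 0.11, with none past the threshold (H2-M3 was at -0.046 with the length trend removed). H2-T22 was at 0.027 without Ctrl replicate 1 (adjusted p = 0.673) and passed without Ctrl replicate 3, at 0.19 (adjusted p = 0.0293). H2-T23 was at 0.039 without Ctrl replicate 1 (adjusted p = 0.424).

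H2-Q7, a Qa-2 gene, rose from a low level. It was at 2.08, 2.54 and 2.54 CPM in Ctrl and 3.81, 7.01 and 3.28 CPM in KAT7KO, highest in KAT7KO replicate 2. Its log2 fold change was 0.98 (SE 0.26, edgeR adjusted p = 0.0170), and without that library it was 0.57 and missed the threshold (adjusted p = 0.0979). The neighbouring copy H2-Q6 had 16, 4 and 4 counts in Ctrl and 12, 26 and 10 in KAT7KO, highest in the same library (log2 fold change 1.03, SE 0.55, adjusted p = 0.192). Without Ctrl replicate 1 its log2 fold change was 2.00 (adjusted p = 0.0111). H2-Ob, the partner chain gene of H2-Oa and untested, also peaked in KAT7KO replicate 2, with 29 counts against 1 to 8 in the other libraries. H2-Q genes are close copies whose reads can be shared. Summed over the 6 H2-Q rows, counts were 1084, 1042 and 1122 in Ctrl and 1184, 1213 and 1135 in KAT7KO, and the sum missed the threshold (log2 fold change 0.16, adjusted p = 0.0665).

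B2m, the light chain of every class I molecule, was at 3614, 3959 and 4176 CPM in Ctrl and 4256, 4333 and 4409 CPM in KAT7KO. All KAT7KO values were higher, yet the log2 fold change of 0.15 (SE 0.05) missed the threshold (edgeR adjusted p = 0.0615), as it did in the authors' deposited table (adjusted p = 0.0549). The lowest value was that of Ctrl replicate 1, without which it passed at 0.089 (adjusted p = 0.00900), as it did in 3 other alternatives. With the length trend removed it was -0.016 (adjusted p = 0.788).

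Both subunits of the TAP transporter, which pumps peptides into the endoplasmic reticulum, fell. Tap1 was at 52.5, 52.0 and 48.8 CPM in Ctrl and at 38.9, 34.2 and 38.9 CPM in KAT7KO, and Tap2 at 39.2, 36.9 and 37.3 CPM in Ctrl and at 24.4, 28.0 and 27.1 CPM in KAT7KO. The genotypes were well apart for both. Tap1 fell by 0.45 on the log2 scale (SE 0.07, edgeR adjusted p = 0.000433) to 73.1% of Ctrl (95% interval 65.8% to 81.2%), and Tap2 by 0.51 (SE 0.08, adjusted p = 0.000288) to 70.0% (62.5% to 78.4%). Their ratio in FPKM stayed within the spread, at 0.934 ± 0.0364 in Ctrl and 0.981 ± 0.130 in KAT7KO (SD, n = 3).

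Of the tapasin genes, Tapbpl rose and Tapbp did not pass the test. Tapbpl encodes TAPBPR, a peptide editor that works outside the loading complex, and was at 18.4, 20.99 and 20.6 CPM in Ctrl and 29.3, 29.5 and 28.9 CPM in KAT7KO. It rose by 0.55 on the log2 scale (SE 0.08, edgeR adjusted p = 0.000260), to 146% of Ctrl. Tapbp, tapasin itself, which joins class I to TAP, was at 342, 321 and 311 CPM in Ctrl and 297, 295 and 294 CPM in KAT7KO. Its log2 fold change of -0.14 missed the threshold (SE 0.05, adjusted p = 0.0575), and so did that of the chaperone gene Calr, also -0.14 (adjusted p = 0.0513). They passed in 6 and 8 of 15 alternatives, among them without Ctrl replicate 1 (Tapbp adjusted p = 0.0310, Calr adjusted p = 0.00586). The FPKM ratio of Tapbpl to Tapbp was 0.0831, 0.101 and 0.102 in Ctrl and 0.152, 0.154 and 0.152 in KAT7KO. Its exact permutation p was 0.1, two-sided, the smallest possible here (0.26 adjusted over 13 ratios). That value decides nothing, as this ratio too was picked after its values were seen. Pdia3 (ERp57), the disulfide isomerase of the loading complex, overlapped between the genotypes (log2 fold change -0.04, adjusted p = 0.553).

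Erap1, the aminopeptidase that trims peptides to length, was at 84.4, 73.0 and 76.6 CPM in Ctrl and 88.8, 90.9 and 86.6 CPM in KAT7KO. The groups did not overlap, although Ctrl replicate 1 came close to the lowest KAT7KO library (log2 fold change 0.19, SE 0.06, edgeR adjusted p = 0.0392). It missed the threshold under 8 of 15 alternatives, DESeq2 among them (adjusted p = 0.0562), and in the authors' deposited table (adjusted p = 0.0536).

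Of the immunoproteasome subunits, which replace the constitutive catalytic subunits after interferon, 1 of 3 rose, against 10.7% of all genes tested. Psmb10 was at 73.3, 92.9 and 96.7 CPM in Ctrl and 116, 108 and 111 CPM in KAT7KO, lowest in Ctrl replicate 1. Its log2 fold change was 0.35 (SE 0.08, edgeR adjusted p = 0.0110), 0.23 without Ctrl replicate 1 (adjusted p = 4.06e-05), and 0.20 without it and with the length trend removed. It missed the threshold without KAT7KO replicate 1 (adjusted p = 0.0517). Psmb8 and Psmb9 overlapped between the genotypes, at 68.0 to 83.5 and 69.6 to 80.6 CPM for Psmb8 and at 26.5 to 29.8 and 25.9 to 28.2 CPM for Psmb9. Their log2 fold changes were both -0.03, with 95% intervals of -0.20 to 0.13 and -0.20 to 0.14. Psmb7, the constitutive subunit that Psmb10 replaces, rose by the same size (0.35, adjusted p = 0.0123, and 0.23 without Ctrl replicate 1). The FPKM ratio of Psmb10 to Psmb7 was thus 2.47 ± 0.0594 in Ctrl and 2.46 ± 0.0632 in KAT7KO. The ratios of Psmb8 to Psmb5 (0.146 ± 0.00439 and 0.140 ± 0.00771) and of Psmb9 to Psmb6 (0.0513 ± 0.00525 and 0.0461 ± 0.00285) overlapped as well. The activator subunit genes Psme1 and Psme2 had log2 fold changes of -0.02 and 0.15 (adjusted p = 0.787 and 0.169). Psme2 was at 0.066 without Ctrl replicate 1 (adjusted p = 0.360).

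**Figure D4:**
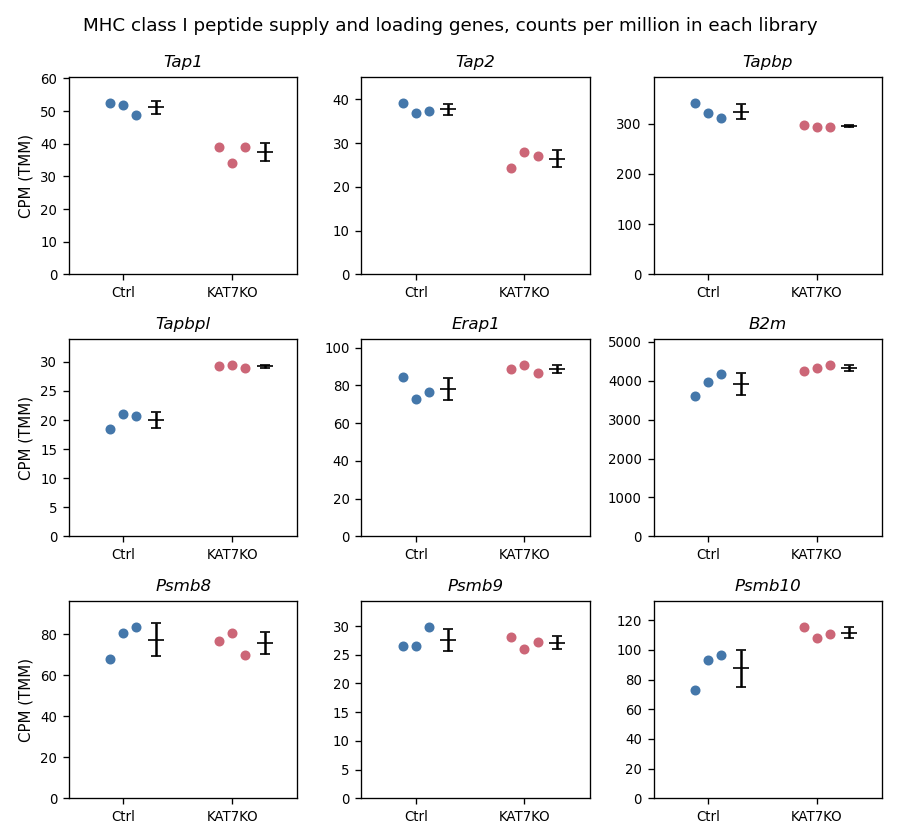
CPM after TMM scaling of 9 class I genes of peptide supply and loading in each library, with bars for mean ± SD (n = 3) and axes from 0. Tap1 and Tap2 are lower and Tapbpl and Psmb10 higher in every KAT7KO library, whereas Psmb8 and Psmb9 overlap.

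The chromosome 17 cluster that holds 20 of the 36 genes showed both directions side by side. In GENCODE order (release M21) the class II region runs H2-DMa, H2-DMb2, H2-DMb1, Psmb9, Tap1, Psmb8, Tap2, H2-Ob, H2-Ab1, H2-Aa and H2-Eb1. Tap1 and Tap2 fell, H2-DMb1 on one side and H2-Ab1 and H2-Aa on the other rose, and Psmb9 and Psmb8 lay between at -0.03. Psmb9 and Tap1 start 225 bases apart on opposite strands, on the stretch printed above, which holds CCAAT near the Psmb9 end and 1 TGACG. The FPKM ratio of Tap1 to Psmb9 was 1.32, 1.31 and 1.09 in Ctrl and 0.924, 0.882 and 0.958 in KAT7KO, lower in every KAT7KO library. Its exact permutation p was 0.1, two-sided, the smallest possible here (0.26 adjusted over 13 ratios). Picked after its values were seen, this ratio is a description only. The annotated spans of Tap1 and Psmb9 overlap on opposite strands, so without a stated strand setting reads in the overlap cannot be assigned with certainty. On other chromosomes 6 members rose, 0 fell and 10 did not pass. On chromosome 17, 4 rose, 2 fell, 13 did not pass and 1 was not tested. Among all genes tested 10.7% were higher and 13.2% lower, and the split by chromosome was not tested.

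**Figure D5:**
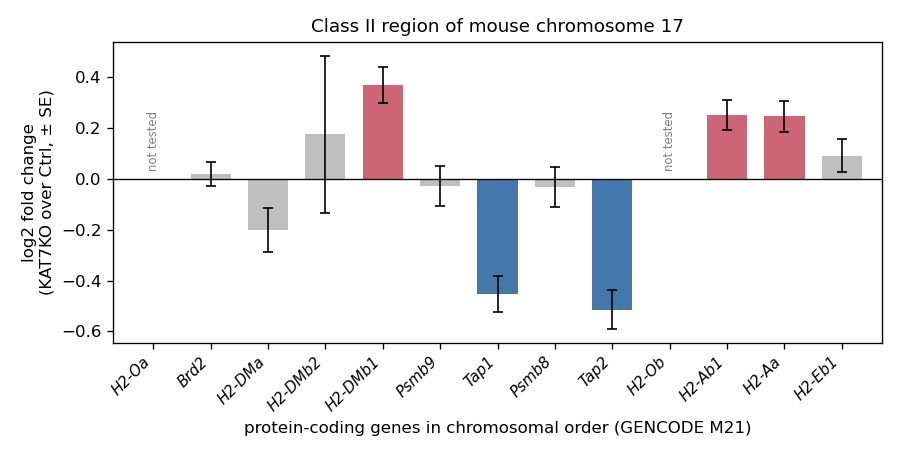
Log2 fold change with SE of the protein-coding genes from H2-Oa to H2-Eb1, evenly spaced in chromosomal order. Red bars passed the threshold as higher (H2-DMb1, H2-Ab1, H2-Aa), blue bars as lower (Tap1, Tap2), grey bars did not pass, and H2-Oa and H2-Ob were not tested.

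The transactivators had few counts, and 1 of 5 passed, against 23.9% of all genes tested. Ciita, the class II coactivator, had 51, 38 and 44 counts in Ctrl and 50, 53 and 67 in KAT7KO, or 1.86 to 2.46 and 2.51 to 3.38 CPM. Its values lay just above Ctrl, with a log2 fold change of 0.40 that missed the threshold (SE 0.21, edgeR adjusted p = 0.196). The 95% interval, -0.06 to 0.85, spans the size of the rises seen in the class II chain genes. Nlrc5, the class I coactivator, was at 20.8, 16.6 and 15.9 CPM in Ctrl and 19.1, 17.9 and 16.1 CPM in KAT7KO and overlapped fully (log2 fold change -0.00, 95% interval -0.24 to 0.23). The FPKM ratio of Ciita to Nlrc5 was 0.109 ± 0.0112 in Ctrl and 0.145 ± 0.0373 in KAT7KO (SD, n = 3), with overlap.

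Of the 3 RFX subunit genes 1 rose, against 10.7% of all genes tested. Rfxank, which gives the complex its ankyrin-repeat subunit, was at 9.46, 10.6 and 10.1 CPM in Ctrl and 13.1, 13.5 and 12.8 CPM in KAT7KO, and rose by 0.38 on the log2 scale (SE 0.10, edgeR adjusted p = 0.0123). Without KAT7KO replicate 2 it missed the threshold (adjusted p = 0.0583). Rfxap was at 13.0, 14.3 and 14.5 CPM in Ctrl and 11.8, 12.5 and 11.7 CPM in KAT7KO, all below Ctrl (log2 fold change -0.22, SE 0.10, adjusted p = 0.115). With the length trend removed it passed, at -0.28 (adjusted p = 0.0281). Rfx5, the DNA-binding subunit, overlapped (log2 fold change -0.17, SE 0.16, adjusted p = 0.456).

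Other genes of the pathway, listed by function, gave 8 higher and 3 lower of 45 tested, or 24.4%, near the share of all genes. The largest difference was that of Cd86, the costimulatory ligand for CD28, at 3.96, 5.57 and 5.77 CPM in Ctrl and 14.6, 17.1 and 16.3 CPM in KAT7KO (log2 fold change 1.65, SE 0.14, edgeR adjusted p = 1.69e-06). Of the endosomal cathepsin genes, Ctsh rose by 0.53, from 513, 611 and 641 to 857, 851 and 835 CPM, and Ctsd rose by 0.23. Ctsl fell by 0.23, from 4622, 5430 and 5535 to 4357, 4467 and 4432 CPM. The FPKM ratio of Ctsh to Ctsl was 0.163 ± 0.00356 in Ctrl and 0.277 ± 0.00617 in KAT7KO. Its exact permutation p was 0.1, two-sided, the smallest possible here (0.26 adjusted over 13 ratios). Picked after its values were seen, this ratio too is a description only. The tetraspanin genes Cd82 and Cd63, whose proteins sit in class II loading compartments, rose by 0.46 and 0.29, and Sppl2a, which cleaves the last membrane stub of the invariant chain, by 0.15.

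Marchf8, a ubiquitin ligase that can remove class II and CD86 from the cell surface, fell by 0.18. In the interferon-gamma pathway the receptor chain gene Ifngr1 rose by 0.24. Psmb7, described above, also rose. Ctsl, Sppl2a, Marchf8 and Cd63 each missed the threshold under at least 2 of 15 alternatives, the first 3 under 3 or more. Ctsl and Marchf8 missed it without KAT7KO replicate 1, and likewise without KAT7KO replicate 3.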

How the data were processed

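Bulk RNA of 3 Ctrl and 3 KAT7KO libraries was analysed from 1 table. The authors deposited raw counts per gene and FPKM for each library, per the file headers, with their log2 fold change, p-value and adjusted p-value columns. The submitters' processing notes name FastQC, fastp, HISAT2, featureCounts, DESeq2 and GRCm39, without versions. The strand setting and the handling of multi-mapping reads are not stated there.

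The fit compared KAT7KO with Ctrl over 12483 genes in edgeR 4.0.16 (R 4.3.3; filterByExpr, TMM factors, robust glmQLFit, glmQLFTest), with Benjamini-Hochberg adjustment and a threshold of 0.05. Library totals of 19906726 to 20660090 make 3 counts 0.145 to 0.152 CPM. The members, lists and ratio pairs were chosen with earlier results of these data known. The text names all members, and of the other pathway genes those past the threshold or used in a ratio, save some that are not reported here. H2-Ob was named after its values were seen, as were the ratios of Tap1 to Psmb9, Tapbpl to Tapbp, H2-DMb1 to H2-DMa, Psmb10 to Psmb8, Cd74 to H2-Aa and Ctsh to Ctsl and the permutation tests of all ratios. Alternatives were other scalings and filters, DESeq2 1.42.0, limma-voom (limma 3.58.1), a replicate block, leaving out each library, sums over gene copies and, added after seeing the data, removal of a gene-length trend by robust loess (span 0.5). Length came from the ratio of count to FPKM. The edgeR, DESeq2 and limma-voom fits were tested on simulated data. Same-numbered libraries did not deviate together (r of deviations -0.00 to 0.02).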

Additional observations from a re-analysis of the deposited data

How the results depend on the processing

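Of the members, H2-Ab1, H2-DMb1, Cd74, Ifi30, Tap1, Tap2 and Tapbpl kept their call under each alternative run. Class II gave 4 to 5 higher when 1 library was left out, and 0 to 2 lower. It gave 1 lower with the length trend removed, and 2 with that and without Ctrl replicate 1. Class I gave 2 to 8 higher and 2 to 4 lower when 1 library was left out. It gave 2 higher and 4 lower with the filter at 5 CPM, which tests 19 of its 21 genes, and 4 lower with upper-quartile factors, with the length trend removed, and with that and without Ctrl replicate 1. Transactivators gave 0 to 1 higher when 1 library was left out, and 1 lower with the length trend removed, with or without Ctrl replicate 1. The other pathway genes gave 0 to 4 lower when 1 library was left out, 1 lower with the length trend removed and 5 with that and without Ctrl replicate 1. Over all genes, leaving out 1 library gave 663 to 1708 higher and 1071 to 1820 lower. With all libraries in, 1335 were higher and 1652 lower. More genes passed in both directions without Ctrl replicate 1 or without Ctrl replicate 3, and fewer without any of the others. The cause was not tested.

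Directions turned for genes near 0 that had not passed: leaving out 1 library, Psmb8 ranged from -0.12 to 0.028, Psmb9 from -0.058 to 0.034, Nlrc5 from -0.078 to 0.12 and Psmb5 from -0.066 to 0.12. Nlrc5 was 0.0031 with limma-voom, 0.0010 with the replicate block, 0.050 with the length trend removed and 0.14 with that and without Ctrl replicate 1. With the length trend removed H2-M3 was -0.046 and B2m -0.016. Psmb5 was -0.12 with the trend removed and -0.13 with both, and Psmb6 was -0.020 with both. The labels do not say whether same-numbered libraries belong together, and the r of deviations, from 3 libraries per genotype, cannot settle it. The replicate block gave 1290 higher and 1522 lower over all genes, against 1335 and 1652 without it. Of the members that passed none lost its call under the block, and Sppl2a of the other pathway genes did. Counts under about 100 per library limit H2-Oa, H2-Q6, H2-Q7, H2-DMb2, Ciita and Rfx5.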
